A study of Mus musculus with 9 samples.

Results

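The genes described here were those whose signal in hormone receptor positive (HR+) mammary cells stood apart at day 3 of pregnancy, on one side of both the virgin and the day 7 level. All 9 arrays were fitted together, and the day 3 mean was set against the equally weighted mean of the virgin and day 7 groups, a difference called the contrast below. A gene counted as a day 3 peak where the contrast was 1 or more on the log2 scale (2-fold), the adjusted p from limma was 0.1 or less, and the virgin and day 7 means lay within 1 log2 unit of each other. A trough was the same with a contrast of -1 or less. Of 11260 named genes tested, 155 were peaks (1.38%) and 100 were troughs (0.888%), together 2.26%. Counted by probe, 197 of 18707 were peaks (1.05%) and 131 troughs (0.7%). With the arrays scaled to a common median in place of the quantile normalization used throughout, the median contrast of all genes moved from -0.01 to 0.13 and the split from 155 peaks and 100 troughs (60.8% peaks) to 386 and 26 (93.7%), so the balance of the counts depends on the scaling. Of the peaks 115, and of the troughs 25, were called both ways.

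The RNA came from FVB female mice labelled as 9 to 11 weeks old, with 3 animals in each of 3 groups. Virgin mice were in metestrus and, by the methods, 11 weeks old, and the pregnant mice were mated at 9 to 11 weeks and taken at day 3 or day 7. All 9 animals, controls included, had been injected with the thymidine analogue EdU 24 hours before the glands were taken. From each animal 1000 luminal HR+ cells were sorted by CD24, CD49f, Sca1 and CD49b after dead cells and CD45+ cells had been gated out, and RNA equal to 167 cells was amplified in repeated rounds and hybridized to 1 bead array of mouse probes. The mice carried no transgene, and the gate is a model of the HR+ cell only as far as its surface markers hold it.

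HR+ luminal cells carry the receptors for estrogen and progesterone, and they pass hormone signals on to the neighbouring receptor negative (HR-) cells through secreted factors. In the adult virgin gland they seldom divide. A cell that enters the cycle first loads the MCM helicase onto its replication origins (licensing), then copies its DNA in S phase and afterwards builds a spindle that separates the chromosomes. Some transcription factors of the E2F family, paired with a DP partner, switch on many genes of licensing and S phase. The genes of mitosis often carry a promoter element named CHR (cell cycle genes homology region).

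Signals are given as log2 of the normalized array intensity, on which an intensity of 100, taken as background, lies near the lowest values shown for the peaks. The mean raw intensity before normalization was 284 to 316 in virgin, 353 to 520 in day 3 and 348 to 440 in day 7 arrays, and between 28.1% and 48.4% of probes reached 100 before normalization. The gate's keratins Krt8 and Krt18 were bright on every array (12.75 to 14.80), whereas the brightest probe of Esr1, which encodes the estrogen receptor and helps to define these cells, lay near background on all 9 arrays (6.54 to 7.13). With 3 arrays per group, the p-values measure the spread between these animals, and that number limits the precision. In sorted bulk RNA, more cells in cycle and more RNA per cycling cell cannot be told apart.

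Most of the peaks that belonged to a pathway list were cell cycle genes. The 6 lists for licensing, the replication fork, deoxynucleotide synthesis, mitosis, cyclins and DNA repair held 253 tested genes. Of these 70 were peaks (27.7%, against 1.38% of all genes tested) and 0 were troughs (against 0.888%). The lists were chosen with earlier results of these data known, so these shares are descriptions. A further 73 of the 155 peaks belonged to no pathway list, with the lists of cell type markers not counted. Day 3 signals lay above all 6 other arrays in 150 of the 155 peaks, while 912 of all genes tested (8.1%) had that order. Below all 6 other arrays lay 95 of the 100 troughs, and 581 of all genes tested (5.16%). Both orders are descriptions, since the same 9 arrays chose the genes.

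The genes with the largest contrasts are shown first with their values. Kntc1, a kinetochore protein of the spindle checkpoint, had day 3 signals of 10.85, 10.89 and 10.42, virgin signals of 7.48, 6.64 and 6.58, and day 7 signals of 7.69, 8.57 and 6.54. All 3 day 3 arrays lay above every other array, and day 7 spanned more than 2 log2 units (SD 1.02). The contrast was 3.47 ± 0.40 (SE), an 11.1-fold difference (adjusted p = 0.00103, limma). Nusap1, which binds spindle microtubules, read 10.91, 10.79 and 10.37 at day 3, 7.33, 6.81 and 6.96 in virgins and 7.77, 8.45 and 6.75 at day 7 (contrast 3.35 ± 0.32, 10.2-fold, adjusted p = 0.000497, limma). In both genes day 7 replicate 2 was the highest and day 7 replicate 3 the lowest of its group. Without day 7 replicate 3 the contrasts remained 3.21 and 3.12, but the virgin and day 7 means of Kntc1 and Nusap1 differed by 1.23 and 1.08, past the limit.

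**Figure D1:**
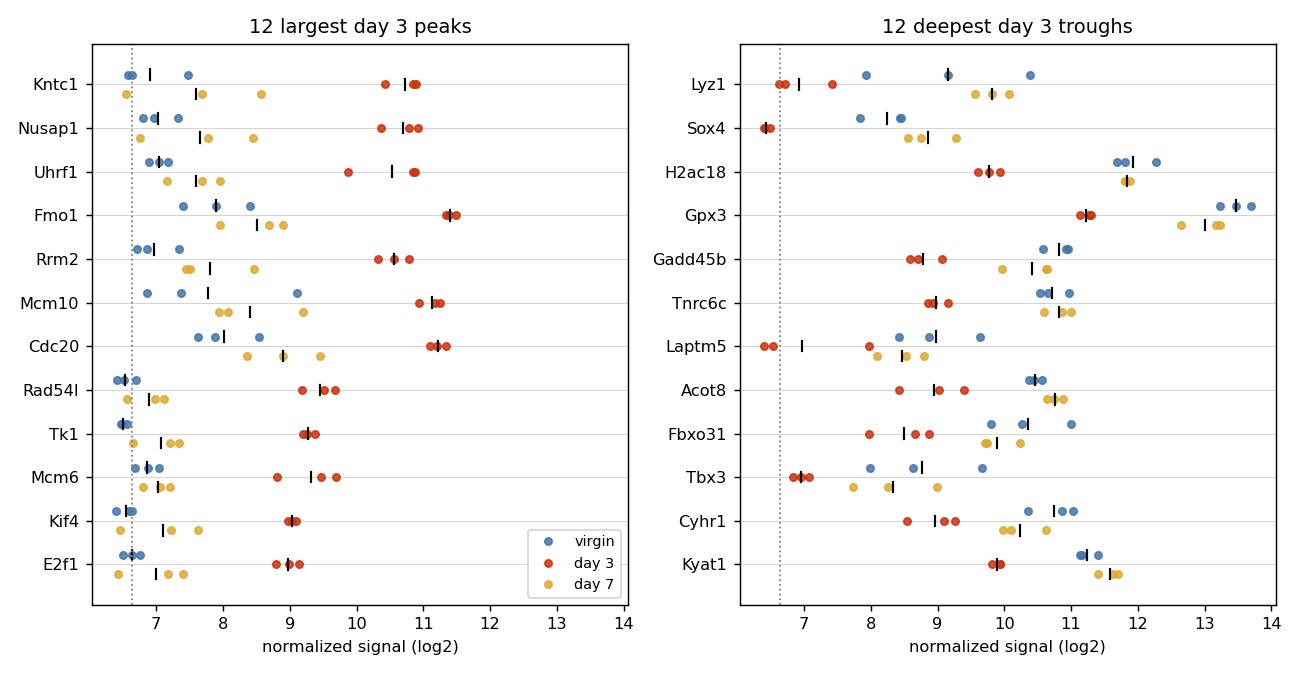
Normalized signal (log2, horizontal axis) of the 12 largest peaks (left) and the 12 deepest troughs (right) on each of the 9 arrays; dots are arrays coloured by group, black ticks are group means (n = 3), and the dotted line is the background intensity of 100. Day 3 dots lie apart from the virgin and day 7 dots in all 24 genes, and the virgin dots of Mcm10 and Lyz1 are the most spread.

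Promoter stretches are shown for peaks that hold either of 2 cell cycle motifs, which most peaks do not. For the replication genes they are the bases just before the start in the RefSeq promoter table of the 3 largest peaks that hold the E2F-type motif TTTNNCGC, on either strand, within 110 bases of the start. The matched bases are in capitals. Sequences are from RefSeq (GRCm38.p6), read 5′ to 3′ along the gene's strand.
Uhrf1 (chr17:56303271-56303336, + strand): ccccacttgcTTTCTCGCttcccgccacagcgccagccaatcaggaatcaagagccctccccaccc
Mcm6 (chr1:128359706-128359825, - strand): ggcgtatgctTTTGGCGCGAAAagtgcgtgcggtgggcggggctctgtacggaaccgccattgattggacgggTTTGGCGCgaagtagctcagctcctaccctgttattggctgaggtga
Supt16 (chr14:52197240-52197330, - strand): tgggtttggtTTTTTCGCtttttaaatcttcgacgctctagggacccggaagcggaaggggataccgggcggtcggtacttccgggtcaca
Mcm6 held 3 matches, a pair of which overlap as inverted copies. For the mitosis genes the 3 largest peaks with the CHR motif TTTGAA, on either strand, in the same window are given, again with the match in capitals.
Kntc1 (chr5:123749666-123749725, + strand): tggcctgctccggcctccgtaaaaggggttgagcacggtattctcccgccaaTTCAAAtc
Cdc20 (chr4:118437344-118437403, - strand): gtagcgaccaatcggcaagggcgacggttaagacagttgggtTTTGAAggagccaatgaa
Cenpn (chr8:116921680-116921739, + strand): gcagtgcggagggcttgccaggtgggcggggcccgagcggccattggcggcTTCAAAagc
The promoter table's start lies inside the annotated gene for Kntc1 and Cenpn, whose first bases are 123749692 and 116921716, so both matches lie after the gene's first base. All 3 of these stretches also hold CCAAT or its complement ATTGG, the box bound by NF-Y, and in Kntc1 the last base of CCAAT is the first base of the capitals.

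Over windows from 250 bases before to 50 bases after each start, a promoter was found for 127 of the 155 peak genes and 81 of the 100 trough genes. The E2F-type motif lay in 27.6% of the peak promoters, 8.6% of the trough promoters, 9.1% of those of all tested genes with a promoter and 5.9% of all 27025 genes in the promoter table. It was held by 7 of 14 peaks of the replication fork list and 3 of 6 of the licensing list, but by 4 of 20 of the mitosis list. The CHR motif had another distribution: 13 of 20 mitosis peaks (65.0%) held it, against 22.8% of all peaks, 18.5% of troughs, 14.6% of tested genes and 20.2% of the whole table. Of the peaks in no pathway list 9 of 61 (14.8%) held it. The share among mitosis genes that were not peaks was not computed. CCAAT on either strand differed less, with 53.5% of peaks, 50.6% of troughs and 41.1% of all genes. The E-box CACGTG, the CRE TGACGTCA, the AP-1 motif TGANTCA, the PAR bZIP motif TTATGTAA and the STAT motif TTCNNNGAA were searched in the same way and lay in 13.4%, 3.1%, 2.4%, 0.79% and 6.3% of peak promoters, against 11.3%, 3.3%, 7.1%, 0.77% and 8.4% of tested genes. These are shares of letters in a window, with no test, and a match is not a bound site.

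Many licensing genes rose at day 3. Of 28 measured members 11 were peaks (39.3%), 22 lay above both other groups, 3 more passed fold and p but not the limit between virgin and day 7, and the median contrast was 0.97 against -0.01 for all genes tested. Over all 11260 genes tested, 3376 lay above both other groups, which is the base for such counts below. Mcm6, a subunit of the replicative helicase, read 9.69, 9.47 and 8.81 at day 3, 6.88, 6.68 and 7.04 in virgins and 7.06, 7.21 and 6.80 at day 7. The day 3 arrays did not overlap with the others, and the virgin and day 7 means differed by 0.16 (contrast 2.37 ± 0.19, adjusted p = 0.000212, limma). Its other 2 probes gave contrasts of 0.30 and 1.59. Mcm4, another subunit of the same ring and by far the brighter signal, rose from 10.89, 10.87 and 10.84 in virgins to 13.22, 13.31 and 12.68, and stood at 11.17, 11.30 and 10.61 at day 7 (contrast 2.12 ± 0.18, adjusted p = 0.00025, limma).

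Mcm10, which helps to start the helicase, had the largest contrast of the licensing peaks (3.03 ± 0.47, adjusted p = 0.00427, limma) and the least even virgin group. Its signals were 9.11, 6.85 and 7.37 in virgins, 11.18, 11.26 and 10.94 at day 3 and 8.08, 9.20 and 7.95 at day 7. Virgin replicate 1 was high, and without it the contrast was 3.36 while the virgin and day 7 means differed by 1.29, past the limit. The 2 other Mcm10 probes had contrasts of 0.27 and 0.79, neither called. Cdt1, which brings the helicase to the origin, reached 10.60, 10.19 and 9.93 at day 3 from 8.01, 7.58 and 7.91 in virgins, with 8.27, 8.69 and 8.41 at day 7 (contrast 2.10 ± 0.16, adjusted p = 0.000198, limma). Cdc45, part of the active helicase, was below background on all 3 virgin arrays and at least 3.93-fold higher at day 3 than the mean of the other groups (adjusted p = 0.000179, limma). The loading ATPase Cdc6 (1.54) and the GINS subunit Gins2 (1.33) were also peaks. Each had 1 other probe, with contrasts of -0.06 and 0.26.

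The replication fork list counted 17 peaks among 36 measured genes (47.2%, and 12 peaks with median scaling), 33 of 36 lay above both groups, and the median contrast was 1.07. Uhrf1, which guides the maintenance methyltransferase to newly copied DNA, read 10.84, 10.87 and 9.87 at day 3, 6.90, 7.04 and 7.17 in virgins and 7.68, 7.96 and 7.17 at day 7. Day 3 replicate 3 was the lowest of its group but still above every other array (contrast 3.21 ± 0.25, 9.24-fold, adjusted p = 0.00019, limma). Top2a, the topoisomerase that untangles replicated DNA, was below background in all virgins (6.42, 6.35 and 6.42), rose to 8.42, 8.43 and 7.99 and was back at 6.52, 6.70 and 6.56 at day 7. That difference was at least 3.17-fold (adjusted p = 7.42e-05, limma).

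The fork protection protein Tipin had a day 7 mean below its virgin mean, with 7.75, 8.14 and 7.83 at day 7 and 7.99, 8.22 and 8.12 in virgins. Its day 3 signals were 9.89, 10.03 and 9.55 (contrast 1.81 ± 0.13, adjusted p = 0.000155, limma). The checkpoint mediator Clspn was at least 3.21-fold higher at day 3 (adjusted p = 0.000244, limma), with other probes between 0.02 and 1.36. The DNA ligase Lig1 had a contrast of 1.64 and the clamp loader subunit Rfc4 one of 1.39, and 1 other probe of each read 0.09 and 0.25. Supt16, a subunit of the histone chaperone FACT, was only just a peak at 1.07, and it fell to between 0.91 and 0.99 without virgin replicate 1, day 3 replicate 3 or day 7 replicate 3, and to 0.96 with array weights. The polymerase subunit Pold1 rose by 1.70 but stood at the edge of the limit described further on.

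In deoxynucleotide synthesis 5 of 26 measured genes were peaks (19.2%) with a median contrast of 0.55. Rrm2, the S phase subunit of ribonucleotide reductase, read 10.79, 10.55 and 10.32 at day 3, 6.71, 7.34 and 6.85 in virgins and 7.50, 8.46 and 7.44 at day 7 (contrast 3.17 ± 0.24, 9.02-fold, adjusted p = 0.00019, limma), and its other probe gave 2.74. No array of another group came within 1 log2 unit of the day 3 range. Its virgin and day 7 means differed by 0.83, and by 1.02 without virgin replicate 2 and 1.01 without day 7 replicate 3, so it would no longer count as a peak there. Tk1, the thymidine kinase of S phase, lay below background in all virgins and rose to 9.25, 9.38 and 9.20, with 7.34, 7.21 and 6.65 at day 7 (at least 5.36-fold, adjusted p = 6.85e-05, limma). A dimmer Tk1 probe gave 0.80. Mthfd1 and Mthfd2, enzymes of one-carbon metabolism, had contrasts of 1.36 (adjusted p = 0.000819, limma) and 1.52 (adjusted p = 0.0271, limma), and the adjusted p of Mthfd2 was 0.108 without day 3 replicate 1 and 0.11 without day 3 replicate 2. The deaminase Dctd rose by 1.23 and had virgin and day 7 means 1.11 apart without virgin replicate 2 and 1.03 apart without day 7 replicate 1. Of the members that were not called, the brightest were the kinase Nme1 (0.47) and the CTP synthase Ctps (0.62). A probe annotated to Tyms-ps, a pseudogene of thymidylate synthase, gave 2.15, while the brightest Tyms probe gave 0.55, and because the copies are alike the source of the first signal is uncertain.

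The mitosis list contained the most peaks, 26 of 86 measured genes (30.2%), with 82 of 86 above both groups and a median contrast of 0.85. Cdc20, which activates the ubiquitin ligase that ends metaphase, read 11.34, 11.20 and 11.09 at day 3, 7.89, 7.63 and 8.54 in virgins and 8.36, 9.45 and 8.90 at day 7 (contrast 2.75 ± 0.25, adjusted p = 0.00041, limma). Its other 2 probes gave 2.02 and 2.80, and the 3 day 3 signals lay within 0.3 log2 units of each other. The virgin and day 7 means of Cdc20 differed by 0.88, and by 1.15 without virgin replicate 3 and 1.16 without day 7 replicate 1. Plk1, a kinase that drives entry into mitosis, rose from 7.43, 6.84 and 7.17 to 9.72, 9.22 and 9.38 and fell back to 7.25, 8.44 and 7.28 (contrast 2.04 ± 0.27, adjusted p = 0.00223, limma). Again day 7 replicate 2 was the highest of its group, below every day 3 array.

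Mis18a, which prepares centromeres for the histone variant CENP-A, read 10.84, 10.91 and 10.47 at day 3, 8.65, 8.40 and 8.62 in virgins and 8.99, 8.61 and 8.78 at day 7 (contrast 2.07 ± 0.13, adjusted p = 7.42e-05, limma). Cenpp was at least 3.74-fold higher at day 3 (adjusted p = 4.1e-05, limma), with 6.93, 6.93 and 6.84 at day 7 and every virgin array below background. Cenpn had a contrast of 2.09, but its virgin and day 7 means differed by 1.04 without virgin replicate 2 and by 1.13 without day 7 replicate 3. The other Cenpn probe gave 0.59 and was not called. The spindle pole kinase Aurka rose by 1.54 (adjusted p = 0.000578, limma). Kif4, a motor on chromosome arms, was at least 4.47-fold higher by its brightest probe (adjusted p = 0.000508, limma), while its other 2 probes gave 0.28 and 0.36.

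Regulators of the cycle held fewer peaks. Of 30 measured cyclins, CDKs and G1 regulators 4 were peaks (13.3%) and the median contrast was 0.12. E2f1 itself read 9.14, 8.80 and 8.98 at day 3, 6.64, 6.50 and 6.76 in virgins and 7.39, 7.17 and 6.42 at day 7 (contrast 2.16 ± 0.20, adjusted p = 0.000384, limma). Its DP partner Tfdp1 rose by 1.25 (adjusted p = 0.000915, limma), with day 7 at 8.52, 8.47 and 8.45 and virgins at 9.05, 8.52 and 8.50. The mitotic kinase Cdk1 went from 6.63, 6.54 and 6.68 to 8.07, 8.04 and 7.56 and back to 6.68, 6.64 and 6.69 (contrast 1.25 ± 0.12, adjusted p = 0.000438, limma), and its second probe gave 0.45. The brightest member, the cyclin Ccnd1, had a contrast of 0.34 (adjusted p = 0.39, limma) with overlapping groups. Cdk4 was above all other arrays at day 3 but was no peak, because its day 7 mean stayed 1.18 above virgin. The cycle inhibitor Cdkn1a fell at both stages of pregnancy, with means of 1.44 and 1.53 log2 units below virgin at day 3 and day 7 (contrast -0.68).

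Among 49 genes of DNA repair and the damage checkpoint 7 were peaks (14.3%) and 39 lay above both groups, with a median contrast of 0.44. Rad54l, a motor protein of homologous recombination, read 9.51, 9.68 and 9.18 at day 3, 6.69, 6.51 and 6.41 in virgins and 6.99, 7.12 and 6.56 at day 7 (contrast 2.74 ± 0.15, 6.69-fold, adjusted p = 6.85e-05, limma). Ung, which removes uracil from DNA, rose by 1.77 (adjusted p = 0.000806, limma), although its virgin and day 7 means lay 1.11 apart without virgin replicate 3. The deubiquitinase Usp1 (1.19) and the checkpoint kinase Chek2 (1.08, below background in all virgins and at least 2.04-fold higher) were smaller peaks. Fancd2, the central protein of the Fanconi pathway, had a contrast of 0.90 (adjusted p = 0.0285, limma), under the 2-fold threshold, with day 3 overlapping day 7.

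**Figure D2:**
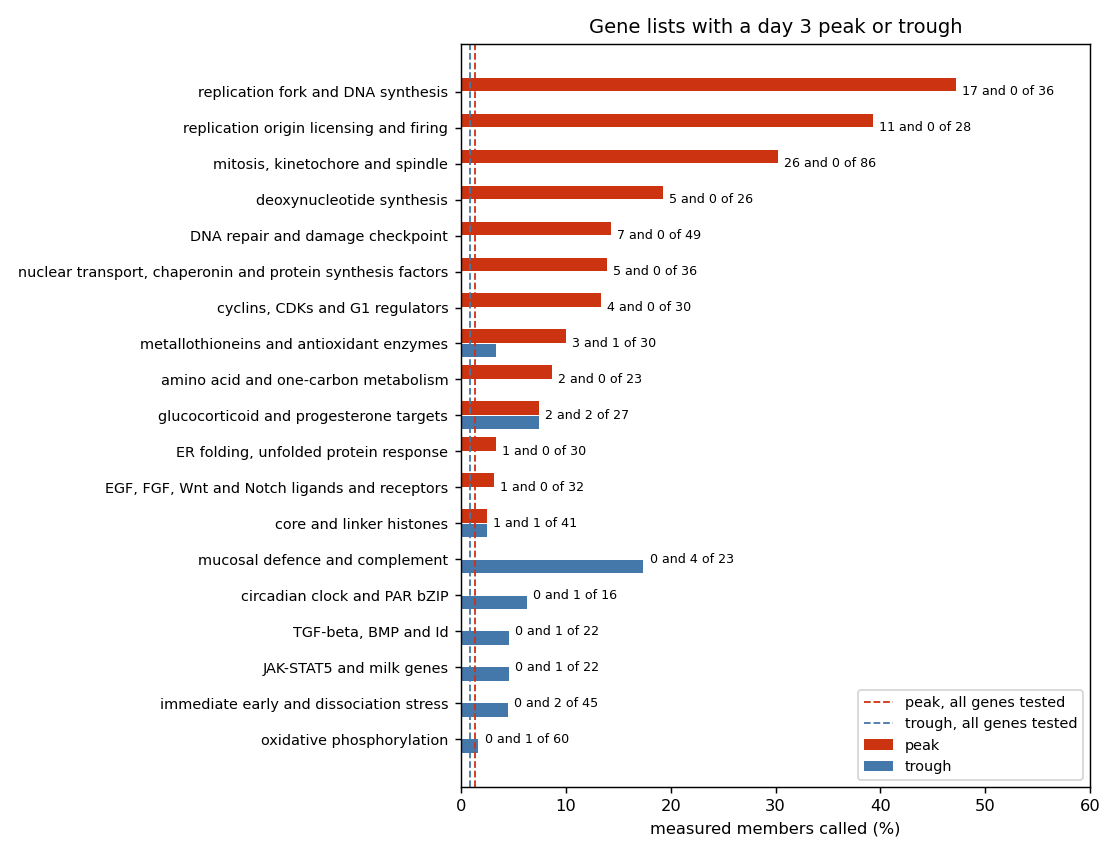
Share of measured members called as peak (red) or trough (blue), in percent, for each pathway list with at least 1 call; labels give peaks and troughs of the measured members, and dashed lines the shares over all 11260 genes tested (1.38% and 0.888%). Replication, mitosis and deoxynucleotide lists hold peaks and no trough, and mucosal defence holds 4 troughs and no peak.

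Genes of growth machinery lay higher at day 3 by smaller differences. For comparison, 3376 of all 11260 genes tested lay above both other groups. Of 57 ribosome biogenesis genes 42 lay above both groups with a median contrast of 0.25, but 0 were peaks, and of 30 proteasome genes 21 lay above both (median 0.26) with 0 peaks. With median scaling the medians were 0.60 and 0.61 and the peaks 6 and 1. The nucleolar protein Npm1 came closest, with 0.98 (adjusted p = 0.00093, limma). Nuclear transport, chaperonin and protein synthesis factors had 5 peaks of 36 measured genes (13.9%), 33 of 36 lay above both groups, and the median was 0.41, against 9 peaks and a median of 0.73 with median scaling. Ranbp1, a cofactor of the Ran transport GTPase, rose from 11.26, 11.25 and 11.14 to 12.52, 12.72 and 12.70, with 11.14, 11.50 and 11.82 at day 7 (contrast 1.30 ± 0.14, adjusted p = 0.000772, limma). The α-tubulin gene Tuba1b (1.61) and the nucleosome binding protein Hmgn2 (1.49) were the largest of that list, and tubulin probes may read closely related copies.

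Core and linker histones gave 1 peak and 1 trough (2.44% each, against 1.38% and 0.888% of all genes tested). The only peak of 41 measured genes was the variant H2az1 (7.51, 7.16 and 7.39 in virgins, 8.65, 8.74 and 8.57 at day 3, 7.23, 7.48 and 7.40 at day 7, contrast 1.29, adjusted p = 0.00019, limma). H2ac18, which encodes a core H2A, was a trough: it read 11.69, 12.28 and 11.81 in virgins, 9.77, 9.61 and 9.94 at day 3 and 11.81, 11.81 and 11.88 at day 7 (contrast -2.11 ± 0.13, adjusted p = 8.78e-05, limma), and its other probe gave -1.31. Near-identical H2A genes exist, so the probes may not separate them. The list's median contrast was -0.13, and it changed sign, to 0.08, where the arrays were scaled to a common median. Messages of the core histones end in a stem-loop in place of a poly(A) tail, unlike that of H2az1. The part of this difference in the histone signals was not tested.

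The return towards the virgin level was often incomplete at day 7. In 125 of the 155 peaks (80.6%) the day 7 mean lay above virgin, against 53.0% of troughs and 48.9% of all genes tested, and the median day 7 minus virgin difference of the peaks was 0.36. The share is a description, since the limit of 1 on that same difference chose the genes. For whole lists, which the limit did not trim, each array's median difference from the virgin mean was 1.28, 1.36 and 1.13 at day 3 and 0.26, 0.34 and 0.15 at day 7 for licensing, and 0.99, 1.00 and 0.83 against 0.16, 0.29 and 0.13 for mitosis. Day 3 and day 7 arrays did not overlap in either list, and all day 7 arrays lay above all virgin arrays. The replication fork list gave 1.25, 1.30 and 1.11 at day 3 and 0.15, 0.46 and 0.21 at day 7.

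**Figure D3:**
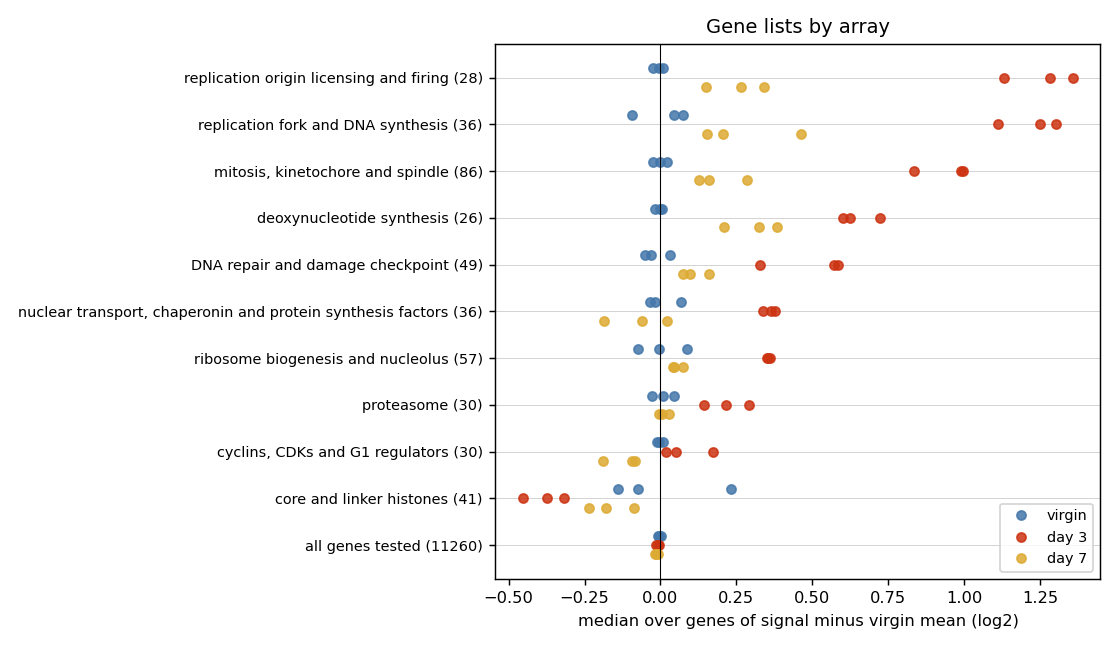
For each gene list (number of measured genes in brackets), the median over its genes of the signal minus the gene's own virgin mean (log2, horizontal axis) on each of the 9 arrays; dots are arrays coloured by group. The day 3 dots of licensing, fork and mitosis genes lie between 0.83 and 1.36, their day 7 dots between 0.13 and 0.46, and those of all genes tested near 0.

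The limit itself left out genes with as large a rise. Of 194 genes (1.72% of those tested) with an upward contrast of at least 2-fold and an adjusted p of 0.1 or less, 155 were peaks, 37 lay above both groups but had virgin and day 7 means 1 or more apart, and 2 lay between the groups. In 31 of these 37 the day 7 mean was above virgin. Pbk, a mitotic kinase, read 12.01, 12.16 and 11.64 at day 3, 8.75, 9.24 and 8.18 at day 7 and below background in virgins, so it was left out although it was at least 19.1-fold higher than the mean of the other groups. Cdca8 (3.54), Cdca3 (3.49), Kif22 (3.26) and Mcm5 (3.25), the first 3 with roles in mitosis and the last a helicase subunit, were left out in the same way, with day 7 means between 1.32 and 2.41 above virgin. The other probe of Cdca8 gave 0.10 and that of Cdca3 2.16. The recombination gene Rad54b was left out by a day 7 minus virgin difference of 1.01, but all 3 of its virgin arrays and 2 of its day 7 arrays lay below background. Its day 7 signals were 6.56, 9.05 and 6.52, and its day 7 mean was 0.73 above the background level. Without day 7 replicate 2 the difference from virgin was 0.17 and the gene counted as a peak.

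On the downward side 167 genes (1.48%) passed fold and p, of which 100 were troughs, 45 missed the limit and 22 lay between the groups. Fxyd2, a regulator of the sodium pump, had a contrast of -2.85 but stood 1.34 higher at day 7 than in virgins, and Dbp, a clock-controlled transcription factor, one of -2.61 with day 7 still 1.67 below virgin. Just inside the limit lay Atad5, Pdhb and Pold1, with differences of 0.99, 0.98 and 0.97, and just outside it Mcm2, Smagp and Rad54b with 1.00, 1.00 and 1.01. The other probes of the trough Pdhb had contrasts of -0.05 and 0.004, neither called. The call of genes at this edge changed with single arrays. Counted over the whole set, 88 of the 155 peaks and 54 of the 100 troughs remained called whichever 1 of the 9 arrays was left out.

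**Figure D4:**
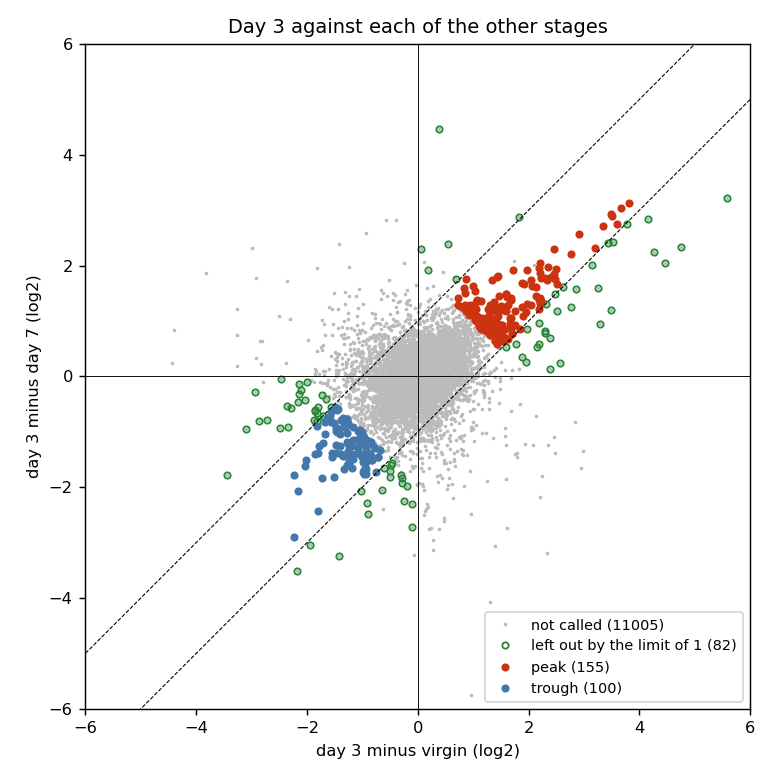
Day 3 minus virgin (horizontal axis) against day 3 minus day 7 (vertical axis), both in log2 units, for the 11260 genes tested; red dots are the 155 peaks, blue dots the 100 troughs, open green circles the 82 genes left out only by the limit, and the dashed lines mark virgin and day 7 means 1 log2 unit apart. Most green circles on the upward side lie below the lower dashed line, where day 7 is above virgin.

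Outside the cell cycle lists the largest peak was Fmo1, a flavin monooxygenase that oxidizes small foreign compounds. It read 11.49, 11.34 and 11.39 at day 3, 7.40, 7.89 and 8.40 in virgins and 7.95, 8.90 and 8.69 at day 7 (contrast 3.20 ± 0.25, 9.19-fold, adjusted p = 0.00019, limma), and its other probe gave 2.90. The day 3 arrays lay within 0.2 log2 units of each other and far above the rest. Psat1, an enzyme of serine synthesis, rose by 1.89 (8.87, 7.21 and 7.84 in virgins, 10.15, 10.07 and 9.84 at day 3, 7.83, 8.68 and 8.33 at day 7, adjusted p = 0.00712, limma). Spink1, a secreted trypsin inhibitor, was below background in all virgins and varied most at day 3, with 9.32, 8.61 and 7.57, against 6.32, 6.54 and 6.87 at day 7 (at least 3.7-fold, adjusted p = 0.00541, limma). Btc encodes the EGF family ligand betacellulin. Among 32 measured ligands and receptors of the EGF, FGF, Wnt and Notch families it was the 1 peak (3.1%, against 1.38% of all genes tested). It read 9.20, 9.06 and 8.62 at day 3, 8.50, 8.21 and 8.02 in virgins and 7.54, 7.41 and 7.70 at day 7 (contrast 1.06 ± 0.15, adjusted p = 0.00297, limma), and without day 3 replicate 1 the contrast was 0.95.

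The metal-binding proteins Mt1 and Mt2 were both peaks. Mt1 read 14.49, 14.68 and 14.64 at day 3, 13.41, 12.79 and 12.58 in virgins and 13.79, 13.95 and 13.43 at day 7 (contrast 1.28 ± 0.18, adjusted p = 0.00322, limma). Without virgin replicate 1 its virgin and day 7 means differed by 1.04. Mt2 had a contrast of 1.03 ± 0.21 (adjusted p = 0.0146, limma) that dropped to between 0.88 and 0.98 without virgin replicate 2, virgin replicate 3, day 3 replicate 2 or day 7 replicate 3. Both are known targets of metals and of glucocorticoids. Gpx3, a secreted glutathione peroxidase kept in the same list of metallothioneins and antioxidant enzymes, went the other way, with 13.23, 13.70 and 13.47 in virgins, 11.27, 11.13 and 11.29 at day 3 and 13.16, 12.64 and 13.22 at day 7 (contrast -2.01 ± 0.15, 4.03-fold, adjusted p = 0.000179, limma). In all, 3 of 30 measured members of that list were peaks, Prdx4 (1.09) being the third, and 1 was a trough. The virgin and day 7 means of Prdx4 lay 1.01 apart without virgin replicate 2.

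Of 20 measured HR+ markers 1 was a peak (5.0%, against 1.38% of all genes tested) and 1 a trough (5.0%, against 0.888%). Contrasts were below 0 in 13 of the 20, where the median contrast of all genes tested was -0.01. Below both other groups lay 7 of the 20, and 3347 of all 11260 genes tested. Cited1, a transcriptional coregulator of HR+ cells, read 9.01, 9.64 and 8.83 at day 3, 8.07, 7.78 and 7.56 in virgins and 8.39, 8.00 and 8.00 at day 7 (contrast 1.19 ± 0.19, adjusted p = 0.00524, limma). It dropped to 0.95 without day 3 replicate 2. Tbx3, a T-box factor needed to form the mammary bud, read 7.08, 6.95 and 6.84 at day 3, 7.99, 8.63 and 9.67 in virgins and 8.99, 8.26 and 7.74 at day 7 (contrast -1.59 ± 0.36, adjusted p = 0.024, limma), and its other 2 probes gave -0.63 and -0.04. The forkhead factor Foxa1 was no peak: its day 3 signals (10.27, 10.19 and 10.04) were close to virgin (10.28, 10.28 and 10.38) and above day 7 (8.96, 9.21 and 9.01). The summed signal of the list was 63866 to 90751 in virgins, 49322 to 51050 at day 3 and 38693 to 41544 at day 7.

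Of the 100 troughs 90 belonged to no pathway list, with the lists of cell type markers not counted. Lyz1, which encodes a lysozyme, was the deepest, with 7.92, 9.15 and 10.39 in virgins, 7.42, 6.63 and 6.71 at day 3 and 10.07, 9.82 and 9.56 at day 7 (contrast -2.57 ± 0.45, adjusted p = 0.00782, limma). Without virgin replicate 3 the contrast was -2.26 and the virgin and day 7 means lay 1.28 apart. Lyz2, a close paralog that the probe may partly share, read 7.07, 7.66 and 8.92, then 6.67, 6.65 and 6.69, then 8.14, 8.15 and 7.95 (contrast -1.31 ± 0.33, adjusted p = 0.0346, limma), and its adjusted p was 0.121 without day 3 replicate 1 and 0.124 without day 3 replicate 2. The complement component C2 (contrast -1.44, adjusted p = 0.00949, limma) and the iron-siderophore binding protein Lcn2 (8.99, 9.41 and 8.62 in virgins, 7.29, 7.13 and 7.14 at day 3, 8.16, 7.84 and 8.26 at day 7, contrast -1.36, adjusted p = 0.00153, limma) completed the 4 troughs among 23 measured genes of mucosal defence and complement (17.4%). Over all genes tested 0.888% were troughs. The median contrast of the mucosal defence list was -0.56, and -0.31 with 3 troughs under median scaling. Its member Wfdc12, a protease inhibitor, was far from this pattern, with 13.57, 13.63 and 13.52 at day 3 and 14.82, 14.94 and 14.32 at day 7 against 6.54, 6.93 and 7.80 in virgins. Lcn2 missed the limit without virgin replicate 3 (day 7 minus virgin -1.11) and without day 7 replicate 3 (-1.01).

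Markers of other cells were read beside these troughs. All 16 measured markers of HR- luminal cells had contrasts below 0, with 6 below both groups, 1 trough (Lcn2) and a median of -0.48. Below both groups lay 3347 of all 11260 genes tested, and 7 of the 20 HR+ markers. Troughs were 0.888% of all genes tested. The summed signal of the 16 HR- markers was 23135 to 35117 in virgins, 11643 to 16085 at day 3 and 20086 to 32700 at day 7. The day 3 arrays were the lowest, and without Lcn2 the day 3 range was 11503 to 15928. The brightest members carry that sum: the per-array medians of the 16 genes relative to the virgin mean overlapped, at -0.19, -0.43 and -0.76 at day 3 and -0.54, 0.03 and -0.66 at day 7. Elf5, a defining factor of HR- cells, lay near background on all arrays (6.44 to 7.08 by its brightest probe), while the milk fat globule protein Mfge8 was bright and 1.99-fold lower at day 3 than the mean of the other groups (adjusted p = 0.00607, limma), just under the 2-fold threshold. Lyz1 and Lyz2 were the 2 troughs of the 7 macrophage and dendritic cell markers measured. The summed signal of the other 5 (Csf1r, Aif1, C1qb, Fcgr3 and Tyrobp) was 534 to 620 in virgins, 491 to 519 at day 3 and 560 to 603 at day 7, near that of 5 genes at background. The sort gated out CD45+ cells and parted HR- from HR+ cells by Sca1 and CD49b. The part of these markers in the troughs was not tested.

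Of the other deep troughs, Sox4, a transcription factor of progenitor cells, lay below background on all 3 day 3 arrays (6.42, 6.40 and 6.49) against 8.44, 7.83 and 8.46 in virgins and 8.76, 8.55 and 9.28 at day 7, at least 3.75-fold lower (adjusted p = 0.000309, limma). Tnrc6c, a protein of microRNA-guided silencing, read 10.53, 10.65 and 10.96 in virgins, 8.85, 9.15 and 8.93 at day 3 and 10.59, 10.87 and 11.00 at day 7 (contrast -1.79 ± 0.13, adjusted p = 0.000165, limma), and its other probe gave -1.82. In both genes the gap between day 3 and the other arrays was over 1 log2 unit. Laptm5, a lysosomal membrane protein best known from blood cells, was less even: it read 7.97, 6.40 and 6.53 at day 3, 8.43, 9.63 and 8.88 in virgins and 8.10, 8.52 and 8.80 at day 7 (contrast -1.76 ± 0.38, adjusted p = 0.0192, limma). Without day 3 replicate 2 its adjusted p was 0.101 and its contrast -1.48.

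Gadd45b, an early response gene, read 10.57, 10.96 and 10.92 in virgins, 8.71, 8.59 and 9.06 at day 3 and 10.63, 9.97 and 10.62 at day 7 (contrast -1.83 ± 0.18, adjusted p = 0.000557, limma), and its other probe gave -0.41. It and the clock gene Per1 (-1.01) were the 2 troughs of 45 immediate early and dissociation stress genes (4.4%, against 0.888% of all genes tested). The list as a whole was lower at both stages of pregnancy. Its per-array medians relative to the virgin mean were -0.71, -0.74 and -0.62 at day 3 and -0.87, -0.85 and -0.76 at day 7. Per1 stood at the fold threshold and lost the call, at between -0.99 and -0.90, without virgin replicate 1, virgin replicate 2, day 3 replicate 2 or day 7 replicate 1. The other Per1 probes gave -0.71 and 0.10, neither called. Of 27 glucocorticoid and progesterone targets 2 were peaks (Mt1 and Mt2) and 2 were troughs (Tgfb3 and Per1). Each count is 7.4%, against 1.38% peaks and 0.888% troughs over all genes tested. Tgfb3, a ligand of the TGF-beta family, read 8.37, 7.81 and 8.06 at day 3, 8.89, 9.67 and 8.61 in virgins and 10.05, 9.56 and 9.68 at day 7 (contrast -1.33 ± 0.23, adjusted p = 0.00755, limma), and its virgin and day 7 means lay 1.01 apart without virgin replicate 2.

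The 4 other members of the 12 deepest troughs were Kyat1, Acot8, Fbxo31 and Cyhr1. The kynurenine aminotransferase Kyat1 read 11.13, 11.40 and 11.16 in virgins, 9.93, 9.82 and 9.94 at day 3 and 11.63, 11.40 and 11.70 at day 7 (contrast -1.51 ± 0.10, adjusted p = 9.71e-05, limma), while its other probe gave -0.56. The peroxisomal thioesterase Acot8 had a contrast of -1.66 and -0.50 by its other probe. Fbxo31, a subunit of a ubiquitin ligase, and Cyhr1 gave -1.63 and -1.52, but their other probes gave 0.05 for Fbxo31 and 0.04 and 0.11 for Cyhr1, so the trough belonged to 1 probe of each. Other troughs, chosen after their values were seen and from no list, were the lysosomal protease Ctsh (-1.22, other probe -1.15), the sphingomyelinase Smpd1 (-1.18) and the membrane protein Glmp (-1.11). Ctsh read 11.02, 10.86 and 11.17 in virgins, 9.82, 9.92 and 10.17 at day 3 and 11.39, 11.33 and 11.37 at day 7. With median scaling the contrasts of Ctsh, Smpd1 and Glmp were -0.81, -0.78 and -0.70, under the 2-fold threshold.

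Where a gene had more than 1 probe, the probes did not always read alike. Of 55 peaks with several tested probes, 48 had all other probes above 0, and 13 had another probe of 2-fold or more. Of 42 troughs with several probes, 34 had all others below 0 and 12 had one of 2-fold or more in the same direction.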

How the data were processed

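Signals were measured on Illumina Mouse WG-6 v2.0 bead arrays, 1 per animal. The deposited values are log2 signals that the authors quantile normalized over the 9 arrays, and they were used as given. The deposited raw intensity table served only for scaling alternatives and array checks. Quantile normalization computed from it differed from the deposited values by 0.0238 on average. Its detection p-value columns hold no values, so a probe was tested where a group mean reached an intensity of 100 (18707 of 45281 probes, 2802 of them without a name), and a group was called below background where all its arrays lay under 100. Names came from platform annotation updated through RefSeq, and 10378 probes had none. The brightest probe stood for a gene.

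All groups entered 1 linear model with empirical Bayes moderation (limma 3.58.1, R 4.3.3), p-values were adjusted over all tested probes by Benjamini and Hochberg, and the fit was tested on simulated data. Where a group lay below background, the fold was set against that floor and given as at least. The groups, the gene lists and the rule for members were chosen with earlier results of these data known. Genes named were the 12 largest peaks and troughs, up to 6 called and 4 bright uncalled members of a list, genes at the limit, genes that only the limit left out, and day 3 proliferation genes of the study. Others are marked as chosen after their values were seen. Promoter motifs were searched with Python 3.11.15. Alternatives covered normalization, background correction, filters, thresholds, probe choice, array weights, the replicate number and single arrays left out.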

Additional observations from a re-analysis of the deposited data

How the results depend on the processing

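Across 26 alternative settings none of the 82 peaks, troughs and genes left out by the limit that the text names changed direction. Settings that changed only the thresholds or the test left each contrast as it was, so they could not reverse it. The genes had also been picked for a contrast of 2-fold or more, so a reversal was unlikely from the start. Besides median scaling (386 peaks and 26 troughs), counts moved by over 1.5 times with both pairwise differences tested (85 peaks, 45 troughs, 16 of the 28 replication peaks), with no minimum fold (1060 peaks, 740 troughs, 61 mitosis peaks in place of 26) and with a limit of 0.5 between virgin and day 7 (88 peaks, 56 troughs, 16 replication and 12 mitosis peaks). The cause of the change under median scaling was not tested. Median scaling also ended 24 named calls. The virgin and day 7 means of Fmo1, Rrm2, Mcm10, Cdc20, Cdt1, Lig1, Mthfd1, Hmgn2, Cenpn, Supt16, Pold1, Atad5, Ung, Dctd, Mt1, Prdx4, Lyz1, Sox4, Tgfb3 and Pdhb then lay 1.08 to 1.58 apart, and the contrasts of Per1 (-0.68), Pdhb (-0.93), Ctsh, Smpd1 and Glmp were under 2-fold. Leaving out 1 array gave 133 to 178 peaks, 84 to 115 troughs, 21 to 32 replication peaks and 22 to 29 mitosis peaks. The labels number the animals 1 to 3 in each group, but deviations from the group means of animals with the same number did not correlate (r from -0.05 to 0.07), so the numbers were not taken to pair them. With the replicate number as a block there were 154 peaks, 100 troughs, 28 replication peaks and 26 mitosis peaks. With 3 arrays per group and no detection calls, differences of genes near an intensity of 100 are bounds.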
